A study of Bos taurus with 16 samples.

Results

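The breed contrast described here used 10 of the 16 bulls of the series, 4 of the 8 Lidia and 6 of the 8 Wagyu, selected within each breed on their lower transcript levels of 5 genes typical of the leptomeninges, namely DCN, LUM, OGN, COL1A1 and SLC6A13. The animals were Agg_8312, Agg_8165, Agg_8171 and Agg_8174 of the Lidia breed and Non_agg_1, Non_agg_5, Non_agg_6, Non_agg_7, Non_agg_9 and Non_agg_12 of the Wagyu breed, as their labels name them. Left out were Agg_8314, Agg_8320, Agg_8324 and Agg_8162 and Non_agg_3 and Non_agg_4. The question was which differences between the breeds are seen when meningeal transcripts are low. Because measured levels chose the animals, those 5 genes are described here by their levels only, and nothing is read from their place in the fit over all genes.

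Post-mortem prefrontal cortex (PFC) was sequenced once per animal, from non-castrated males of 3 years of age, except Agg_8174, which was 4 years old. Lidia is a breed selected for aggressive behaviour and its animals carry the label aggressive. Wagyu is a docile beef breed and its animals carry the label non-aggressive. The Lidia bulls were sampled after a fight in the ring and the Wagyu bulls in a slaughterhouse. Agg_8312 came from a different farm than the other Lidia bulls, and all Wagyu bulls came from a single further farm, as the study's methods and animal list say. Breed, farm and the circumstances of death therefore cannot be told apart, and no animal received a treatment. The fragments behind the values numbered 7.67 to 34.8 per animal in units of 10 to the power 6, and the breeds did not differ in this depth beyond the animals' own spread (p = 0.886 in a two-sided exact permutation test, n = 4 and 6). Non_agg_5 had the lowest depth of the 10, and Agg_8165 and Non_agg_5 stood apart from the other animals, with median correlations over genes of 0.903 and 0.923 against 0.945 to 0.958 for the rest. Main counts are given below with and without that pair. The share of FPKM on the mitochondrial genome was 30.9% ± 6.08 (SD, n = 4) in Lidia and 24.4% ± 7.65 (SD, n = 6) in Wagyu (exact two-sided permutation test, p = 0.171). Without Non_agg_5 the breeds differed by 9.43 percentage points in that share (p = 0.0159 by the same exact test). Without Agg_8165 the difference was 3.97 percentage points (exact two-sided permutation test, p = 0.405). Only the omission of Non_agg_5 brought this test under 0.05 when 1 animal was left out.

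The leptomeninges are the thin membranes on the surface of the brain. Their fibroblasts make collagens and small proteoglycans and carry transporters such as SLC6A13, which takes up GABA and taurine. A block of cortex includes a variable amount of this membrane together with neurons, glia and vessels, and in such a bulk sample fewer cells of a type and less RNA per cell cannot be told apart. Several genes discussed below have known ties to hormones or to neuronal activity. DIO2 makes active thyroid hormone in glia, FKBP5 is induced by glucocorticoids, and BDNF is induced by neuronal activity.

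The low levels were low for each breed but not equal between the breeds. After scaling over all 16 animals, DCN, a proteoglycan of connective tissue, stood at 6.57, 5.85, 5.74 and 6.63 FPKM in Agg_8312, Agg_8165, Agg_8171 and Agg_8174. In the 6 Wagyu bulls it ranged from 1.63 to 3.28 FPKM. COL1A1, a chain of collagen I, was 0.812 to 1.35 FPKM in these Lidia and 0.198 to 0.482 FPKM in these Wagyu, and SLC6A13 was 1.49 to 3.47 FPKM and 0.4659 to 1.24 FPKM. For these 3 genes every Lidia value lay above every Wagyu value. LUM, another proteoglycan, overlapped between the breeds, at 1.41 to 3.74 FPKM in Lidia and 1.43 to 1.85 FPKM in Wagyu. OGN could not be paired with a gene of the files. The mean log2 level of the 4 markers was 1.05 to 1.58 in the 4 Lidia bulls and -0.14 to 0.34 in the 6 Wagyu bulls. It was 1.35 and 1.86 in Non_agg_4 and Non_agg_3, within or above the range of these Lidia bulls, and 2.37 to 3.38 in the Lidia bulls left out.

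**Figure D1:**
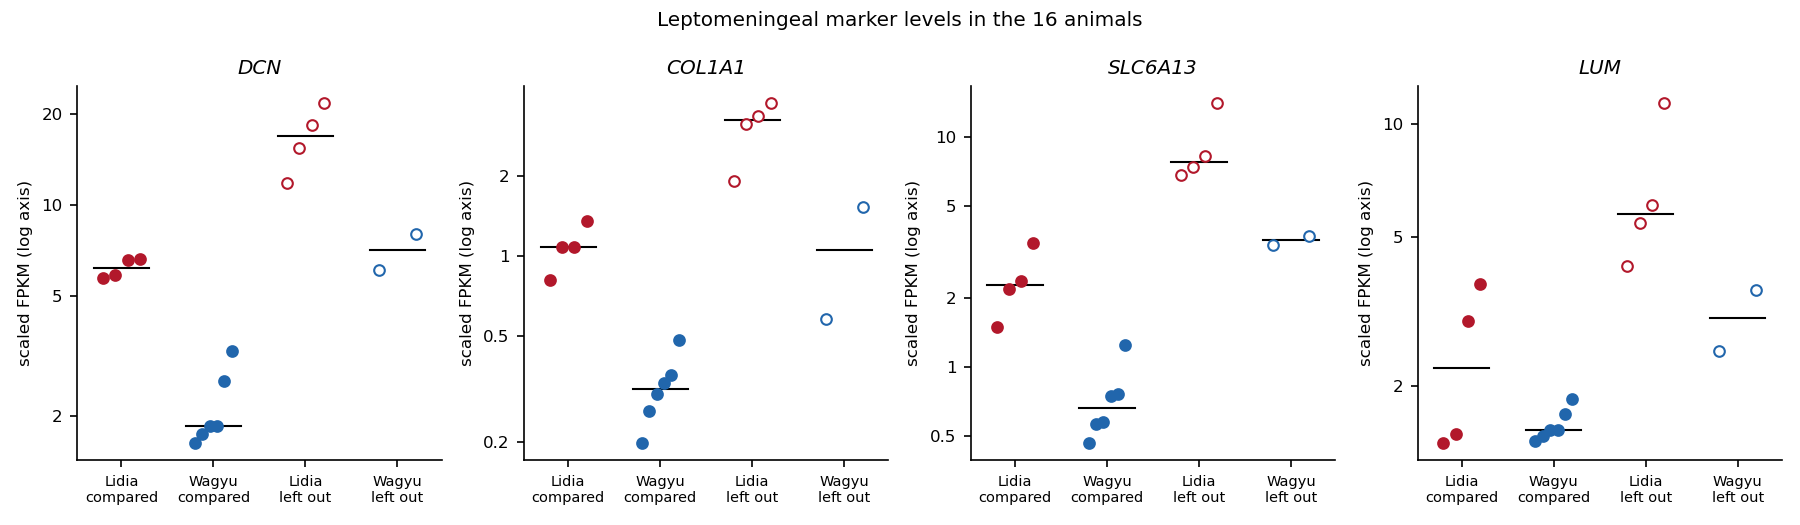
Scaled FPKM (log axis) of the 4 leptomeningeal markers with a symbol in the 16 animals, by breed (red, Lidia; blue, Wagyu) and by whether the animal entered the contrast (filled) or was left out (open). The bar is the group median. DCN, COL1A1 and SLC6A13 were higher in all 4 compared Lidia bulls than in all 6 compared Wagyu bulls, while Non_agg_3 and Non_agg_4 lay near those Lidia bulls.

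Between the 4 Lidia and the 6 Wagyu bulls, 109 genes were called different, which is 0.667% of the 16335 tested. To be called, a gene needed a limma adjusted p (Benjamini-Hochberg) of 0.05 or less with a log2 fold change of 0.1 or more in either direction, and all fold changes are Lidia minus Wagyu on the log2(FPKM + 0.1) scale. The chosen markers DCN, COL1A1 and SLC6A13 are among the 109, and 106 remain without them, 95 higher and 11 lower. Of the 109, 98 rose in Lidia (0.600% of the genes tested) and 11 fell (0.0673%). In 4 of the 109 the mean was under the filter of 0.1 FPKM in one breed, so that they entered the fit through the breed where they were high. The median log2 fold change was 1.11 for the genes that rose and -0.92 for those that fell, beside -0.02 for all genes tested. All 109 had every Lidia value on one side of every Wagyu value, as did 833 genes in all (5.10% of those tested), 543 with the Lidia values above (3.32%) and 290 with them below (1.78%). At an unadjusted p under 0.05, 2495 genes differed (15.3%), of which 1429 were higher in Lidia and 1066 lower. Without Agg_8165 and Non_agg_5, 13 genes were called, 11 higher and 2 lower, and 12 of them were among the 109. On the FPKM as deposited, without scaling between animals, 0 genes were called by limma and 509 had an unadjusted p under 0.05.

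Symbols were available only for genes of the study's own list of changed loci, which was drawn from these same animals, so the direction of a named gene is not independent evidence. Of the 109 genes called, 91 were paired with an entry of that list, 89 carried a symbol, and 18 were not paired. Of the 1197 entries, 147 spanned several genes or were unpaired, so some of the 18 may belong to the list. In the 6 animals left out, which share no library with the 10, the difference had the same sign for 107 of the 109 genes (98.2%). It did so for 104 of the 106 without the chosen markers, and for all 18 not paired with the list. The share was 52.2% of all genes tested and 93.4% of the 1025 tested genes paired with that list. The median log2 difference of the genes that rose was 0.70 in those 6 animals, and that of the genes that fell was -0.74. These 6 animals comprise 4 Lidia bulls with high and 2 Wagyu bulls with intermediate marker levels, so the marker gap between the breeds is present there too, and its part in these counts was not tested.

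**Figure D2:**
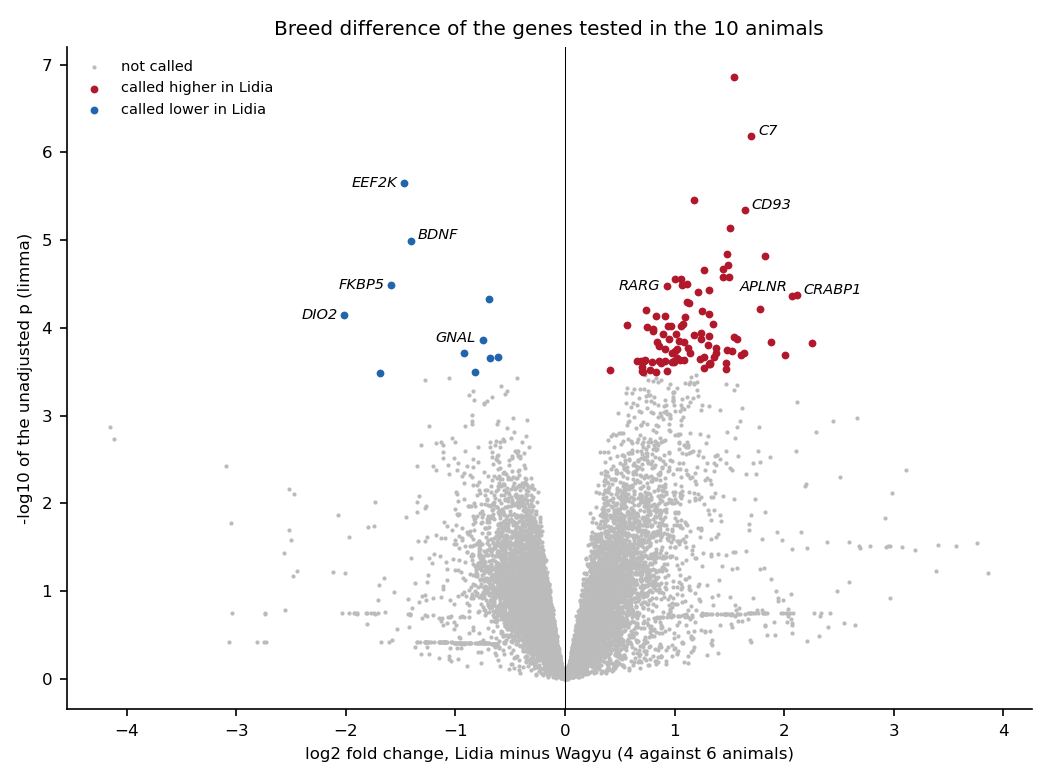
Log2 fold change (Lidia minus Wagyu) against the -log10 of the unadjusted limma p for the 16335 genes tested in 4 Lidia and 6 Wagyu bulls. Red points are the 98 genes called higher in Lidia, blue points the 11 called lower, and grey points the genes not called. EEF2K, BDNF, FKBP5 and DIO2 stand at the left, and C7, CD93, CRABP1 and APLNR at the right.

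The genes that fell in Lidia included regulators of thyroid hormone, glucocorticoid signalling, translation and neurotrophin supply. DIO2 (ENSBTAG00000001605, chromosome 10, 91495432 to 91504569, ARS-UCD1.2), the deiodinase that converts thyroxine to active thyroid hormone, was 0.410, 0.950, 1.47 and 0.851 FPKM in Agg_8312, Agg_8165, Agg_8171 and Agg_8174. In Wagyu it had a lowest value of 2.22, a median of 3.85 and a highest value of 5.86 FPKM. The highest Lidia value lay below the lowest Wagyu value, and DIO2 had the largest decrease among called genes with a symbol (log2 fold change -2.01, SE 0.32, limma adjusted p = 0.0354).

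FKBP5 (ENSBTAG00000047502, chromosome 23, 9555619 to 9672159), a co-chaperone that restrains the glucocorticoid receptor and is itself induced by glucocorticoids, was 2.14, 3.25, 3.17 and 5.17 FPKM in the same order of Lidia bulls. In Wagyu its lowest, median and highest values were 7.87, 10.1 and 14.5 FPKM. The groups did not overlap, and FKBP5 fell by 1.58 on the log2 scale (SE 0.23, limma adjusted p = 0.0272).

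EEF2K (ENSBTAG00000017662, chromosome 25, 19903413 to 19955828), the kinase that phosphorylates elongation factor 2 and slows translation, was 2.74, 2.62, 3.70 and 3.78 FPKM in Lidia. In Wagyu it was 6.67 FPKM at the lowest, 9.01 at the median and 11.1 at the highest. It had the smallest adjusted p of the genes that fell (log2 fold change -1.47, SE 0.16, limma adjusted p = 0.0123), and it was called in 9 of the 10 fits that left out 1 animal, the exception being Non_agg_12 (-1.43, limma adjusted p = 0.0566).

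BDNF (ENSBTAG00000008134, chromosome 15, 58385523 to 58422131), a neurotrophin released by active excitatory neurons, was 1.28, 0.913, 0.971 and 1.69 FPKM in Lidia. Wagyu values were 2.84 FPKM at the lowest, 3.19 at the median and 3.97 at the highest. The groups did not overlap, with a log2 fold change of -1.40 (SE 0.18, limma adjusted p = 0.0237).

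GNAL (chromosome 24, 42652184 to 42723588), the G protein alpha subunit that couples D1 dopamine receptors to adenylyl cyclase, was 3.48, 2.97, 3.47 and 4.38 FPKM in Lidia and 5.19 to 6.89 FPKM in Wagyu, with a Wagyu median of 6.06. GALNT18 (chromosome 15, 41064073 to 41420001), a family member of the enzymes that start O-linked glycans, showed little spread within Lidia, at 4.80, 4.71, 4.58 and 4.36 FPKM, against 6.24 to 8.83 FPKM in Wagyu with a median of 7.51. Both fell, by 0.75 (SE 0.13, limma adjusted p = 0.0409) and by 0.69 (SE 0.11, limma adjusted p = 0.0307) on the log2 scale. DNAJB5, an HSP40 co-chaperone, was 10.05, 10.5, 6.999 and 10.7 FPKM in Lidia and 14.9 to 23.1 FPKM in Wagyu, with a median of 15.9, and fell by 0.82 (SE 0.16, limma adjusted p = 0.0485). OTOP1, a proton channel, was low in both breeds, at 0.101 to 0.152 FPKM in Lidia and 0.282 to 0.416 FPKM in Wagyu, and fell by 0.92 (SE 0.17, limma adjusted p = 0.0426). Most of these calls were lost in most of the fits that left out 1 animal, whichever animal it was for some genes. In those fits the log2 fold change was -0.85 to -0.67 for GNAL, -0.88 to -0.68 for DNAJB5 and -0.98 to -0.85 for OTOP1. BDNF was called in 6 of the 10 fits that left out 1 animal, FKBP5 in 4, DIO2 and GALNT18 in 2, and GNAL, DNAJB5 and OTOP1 in 0, with a largest limma adjusted p of 0.0595 to 0.109 over these genes and with the sign kept. Without Agg_8165 and Non_agg_5, EEF2K (-1.32, limma adjusted p = 0.0259) and GALNT18 (-0.75, limma adjusted p = 0.0415) stayed called, whereas BDNF (-1.33, limma adjusted p = 0.0538), FKBP5 (-1.47, limma adjusted p = 0.0759) and DIO2 (-2.01, limma adjusted p = 0.102) did not. The remaining called gene with a symbol, NOL10, a nucleolar protein named here after its value was seen, fell by 0.69 (limma adjusted p = 0.0426). The other 2 of the 11 had no symbol. They were ENSBTAG00000013465, at 3.71 to 4.21 FPKM in Lidia and, in Wagyu, a median of 5.95 and a highest value of 7.19 FPKM, and ENSBTAG00000019824, which was listed at 0 in 3 of the 4 Lidia bulls and did not exceed 0.524 FPKM in Wagyu. The Lidia mean of ENSBTAG00000019824, 0.0294 FPKM, lies under the filter. It entered the fit through Wagyu, so no fold is given for it.

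**Figure D3:**
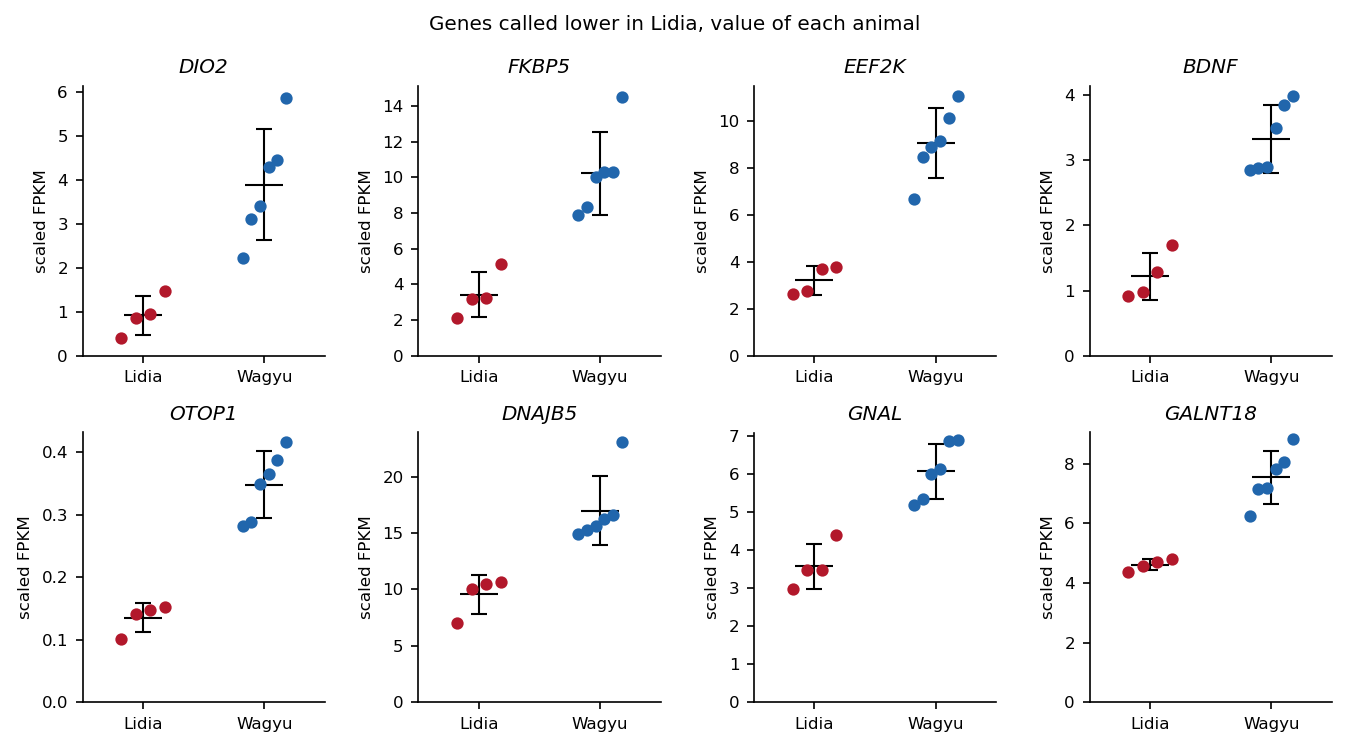
Scaled FPKM of the 8 genes with a symbol and the largest decreases in Lidia, 1 point per animal (4 Lidia, 6 Wagyu), with the mean and SD in black and axes that start at 0. In each of the 8 genes the highest Lidia point lies below the lowest Wagyu point.

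With the chosen markers set aside, the largest increases with a symbol were those of CRABP1, APLNR, IFI47, FBLN1, C7, CD93 and NOTUM, whose known roles differ. CRABP1 (ENSBTAG00000012909, chromosome 21, 30733397 to 30740592), which binds retinoic acid in the cytoplasm, was 8.36, 18.4, 13.9 and 16.3 FPKM in Agg_8312, Agg_8165, Agg_8171 and Agg_8174. In Wagyu its lowest, median and highest values were 1.67, 3.05 and 5.02 FPKM. All Lidia values lay above all Wagyu values, and CRABP1 had the largest increase with a symbol (log2 fold change 2.11, SE 0.32, limma adjusted p = 0.0293).

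APLNR (chromosome 15, 80445007 to 80448574), the apelin receptor of endothelial cells, was 1.57, 1.07, 1.66 and 0.792 FPKM in Lidia and 0.0673 to 0.387 FPKM in Wagyu with a median of 0.237 (log2 fold change 2.07, SE 0.31, limma adjusted p = 0.0293). CD93 (chromosome 13, 41878359 to 41882281), a lectin-like endothelial membrane protein, was 1.03, 0.980, 0.646 and 0.717 FPKM in Lidia and 0.144 to 0.297 FPKM in Wagyu with a median of 0.194 (1.64, SE 0.19, limma adjusted p = 0.0149). C7 (ENSBTAG00000011766, chromosome 20, 33535937 to 33593157), a late complement component, was 0.765, 1.10, 0.734 and 0.824 FPKM in Lidia and 0.161 to 0.252 FPKM in Wagyu with a median of 0.189. C7 rose by 1.70 on the log2 scale (SE 0.16, limma adjusted p = 0.00528) and was called in all 10 fits that left out 1 animal, where its log2 fold change was 1.61 to 1.76. CD93 was called in 9 of these fits and missed the threshold without Non_agg_12 (1.60, limma adjusted p = 0.0595), APLNR was called in 4, and CRABP1 in 2. Without Agg_8165 and Non_agg_5, C7 stayed called (1.63, limma adjusted p = 0.00894), while CD93 (1.58, limma adjusted p = 0.0538), APLNR (2.23, limma adjusted p = 0.0722) and CRABP1 (1.90, limma adjusted p = 0.1002) did not.

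FBLN1, an extracellular matrix glycoprotein, was 5.29, 3.56, 6.48 and 7.96 FPKM in Lidia and 1.16 to 2.95 FPKM in Wagyu with a median of 1.43 (log2 fold change 1.78, SE 0.28, limma adjusted p = 0.0348). NOTUM, a secreted enzyme that inactivates WNT ligands, was 0.451, 1.26, 0.565 and 0.432 FPKM in Lidia and 0.0670 to 0.232 FPKM in Wagyu (1.64, SE 0.29, limma adjusted p = 0.0426), so its largest value was that of Agg_8165. Leaving out 1 animal at a time kept the call of FBLN1 in 2 fits and that of NOTUM in 0. IFI47, an interferon-inducible GTPase of a gene family whose members can share reads, was 0.642, 0.683, 0.112 and 0.225 FPKM in Lidia and did not exceed 0.0180 FPKM in Wagyu, where Non_agg_1 was listed at 0. Its Wagyu mean of 0.0113 FPKM lies under the filter, so it entered the fit through Lidia, and its log2 fold change was 0.46 with a pseudocount of 1 and 4.06 with one of 0.01. The smallest adjusted p of all belonged to AEBP1, a matrix protein named here after its value was seen, at 3.20 to 4.39 FPKM in Lidia and 1.05 to 1.42 FPKM in Wagyu (1.55, limma adjusted p = 0.00227). Of the genes without a symbol, ENSBTAG00000050274 at 0.445 to 1.27 FPKM in Lidia against at most 0.213 FPKM in Wagyu and ENSBTAG00000011824 at 1.34 to 4.45 FPKM against 0.289 to 0.776 FPKM (log2 fold change 1.88) stood highest. The first of them was listed at 0 in Non_agg_1 and Non_agg_7 and entered the fit through Lidia, with a Wagyu mean of 0.0802 FPKM, so no fold is given for it.

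The cell type and pathway lists could be read only for genes with a symbol, which all stand in the study's list with a direction drawn from these animals. All 31 fibroblast and meningeal, all 19 astrocyte and all 18 oligodendrocyte genes tested stand in it as higher in Lidia, and all 23 neuron genes as lower, so the side on which a list lies was given beforehand and nothing is read from it. The shares to hold the counts against are those of that list. Of its 782 tested genes listed as higher, 10.5% were called higher, 72.9% were higher at an unadjusted p under 0.05 and 36.3% had every Lidia value above every Wagyu value. Of its 243 tested genes listed as lower, 3.70% were called lower, 67.5% were lower at that level and 21.8% had every Lidia value below. Of 45 other fibroblast and meningeal genes 31 were tested, 4 of those rose and 0 fell. The 4 were FBLN1, COL1A2 of collagen I (1.54, limma adjusted p = 0.0409), the transcription factor ZIC1 (1.47, limma adjusted p = 0.0426) and COL6A1 of collagen VI (0.93, limma adjusted p = 0.0485). With these 4 included, 25 of the 31 were higher in Lidia at an unadjusted p under 0.05 (8.75% of all genes tested), and the list median was 0.93. Among those not called, IGF2, a growth factor of the meninges, was 3.44 to 9.20 FPKM in Lidia and 0.532 to 3.28 FPKM in Wagyu (log2 fold change 2.11, limma adjusted p = 0.0678). The summed level of the 31 genes was 51.0 to 78.4 FPKM in the Lidia bulls and 22.2 to 39.6 FPKM in the Wagyu bulls, and none of the 31 was at 0 in any animal.

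Of 16 endothelial genes tested, CD93, CDH5 and ECSCR rose and 0 fell. CDH5, the cadherin of endothelial junctions, was 2.10, 2.79, 2.08 and 2.43 FPKM in Lidia and 0.558 to 1.22 FPKM in Wagyu (1.25, SE 0.20, limma adjusted p = 0.0348). ECSCR, an endothelial surface protein, was 0.754 to 1.52 FPKM and 0.297 to 0.488 FPKM (1.18, limma adjusted p = 0.0407). The list median was 1.05, and 14 of the 16 genes were higher at an unadjusted p under 0.05. The study lists those 14 as higher, and 72.9% of all its genes so listed reached this level. It lists the other 2, COL4A1 and ACKR1, as lower. Their log2 fold changes were -0.46 and -0.48, and COL4A1 was lower at that level. Among those not called, the tight junction gene CLDN5 was 20.6 to 92.4 FPKM in Lidia and 10.6 to 17.0 FPKM in Wagyu (1.39, limma adjusted p = 0.128). The summed endothelial level was 149.6 FPKM in Agg_8165, 49.4 to 64.6 FPKM in the other Lidia bulls and 30.6 to 47.4 FPKM in Wagyu. Of 5 mural cell genes 0 were called by limma and 4 were higher at an unadjusted p under 0.05, with summed levels of 16.3 to 45.3 FPKM in Lidia and 8.06 to 13.5 FPKM in Wagyu. The study lists those 4 as higher and the remaining gene, CSPG4 (log2 fold change -0.39), as lower. Without Agg_8165 and Non_agg_5, the medians of the endothelial and mural lists were 0.86 and 0.93, with 0 members called and 14 and 4 higher at an unadjusted p under 0.05.

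Of 19 astrocyte genes 1 rose, FGFR3, a growth factor receptor of astrocytes, at 6.41, 9.45, 8.83 and 5.95 FPKM in Lidia and 2.85 to 5.17 FPKM in Wagyu (0.98, SE 0.18, limma adjusted p = 0.0426). The astrocyte median was 0.56, and 14 of the 19 were higher at an unadjusted p under 0.05. All 19 are listed by the study as higher, and 72.9% of all its genes so listed reached this level. GFAP, the intermediate filament of astrocytes, was 187 to 280 FPKM in Lidia and 87.2 to 182 FPKM in Wagyu and was not called (0.76, limma adjusted p = 0.157). The summed astrocyte level reached 4128 FPKM in Agg_8165 and was 1849 to 2425 FPKM in the other Lidia bulls and 1368 to 1768 FPKM in Wagyu. Of 18 oligodendrocyte genes 0 were called by limma and 4 had an unadjusted p under 0.05. Their sum was again highest in Agg_8165, at 626 FPKM against 136 to 398 FPKM in the other 9 animals, and their median of 0.68 became 0.27 without Agg_8165 and Non_agg_5. Of 15 microglia and macrophage genes 0 were called. In that list 9 were higher and 4 lower at an unadjusted p under 0.05, and 11 had fold changes above 0, with a median of 0.75. The study lists those 11 as higher and the other 4 as lower. Its summed level was 49.2 to 77.2 FPKM in Lidia and 26.9 to 49.0 FPKM in Wagyu. HCLS1, a signalling adaptor of blood cells, was 0.576 to 1.03 FPKM in Lidia and 1.57 to 2.66 FPKM in Wagyu (-1.05, limma adjusted p = 0.0533), while the microglial receptor CX3CR1 was 3.30 to 7.13 FPKM and 1.37 to 3.65 FPKM (1.17, limma adjusted p = 0.125).

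Of 10 excitatory neuron genes and 13 inhibitory neuron and neuropeptide genes, 0 were called by limma. Their medians were -0.34 and -0.46, and 6 and 7 of them were lower at an unadjusted p under 0.05, beside 6.53% of all genes tested and the 67.5% of genes the study lists as lower. SLC17A7, the vesicular glutamate transporter of cortical excitatory neurons, was 91.5 to 139 FPKM in Lidia and 132 to 172 FPKM in Wagyu (-0.34, limma adjusted p = 0.303). CRHBP, the binding protein of corticotropin-releasing hormone, was 4.83 to 8.70 FPKM and 9.14 to 11.9 FPKM without overlap (-0.62, limma adjusted p = 0.134). The summed levels of the inhibitory list were 124 to 198 FPKM in Lidia and 210 to 229 FPKM in Wagyu, again without overlap, whereas those of the excitatory list overlapped, at 375 to 486 FPKM and 432 to 659 FPKM. The summed levels of the fibroblast, endothelial, mural, astrocyte, microglia and macrophage, and inhibitory neuron lists did not overlap between the breeds. Only members that the study lists as changed between the breeds were summed, so this separation is not independent evidence of cell content. The part of these sums in the differences of single genes was not tested.

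**Figure D4:**
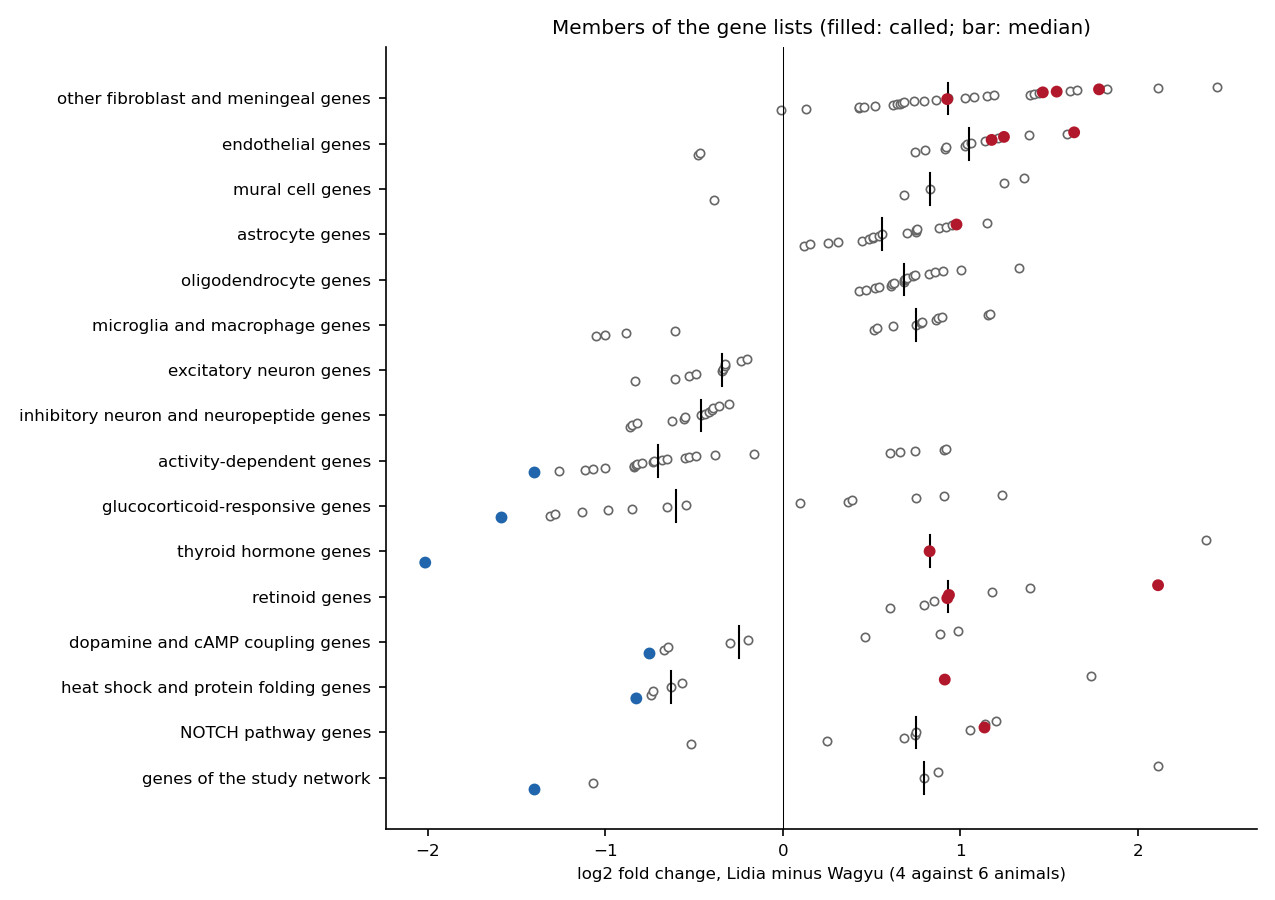
Log2 fold change (Lidia minus Wagyu, 4 against 6 bulls) of each tested member of 16 gene lists, with called members filled (red higher, blue lower), the others open and the list median as a black bar. Fibroblast, vessel, glial, retinoid and NOTCH lists have medians above 0, and the neuron, activity-dependent, glucocorticoid, dopamine and heat shock lists have medians below 0. Named members come from the study's own list, which gave each a direction in these same animals.

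BDNF was the only called member of the 24 activity-dependent genes tested. The list median was -0.70, and 14 members were lower and 2 higher at an unadjusted p under 0.05. The study lists 19 of the 24 as lower and 5 as higher. Of all its genes listed as lower, 67.5% were lower at this level. The 2 higher ones were DUSP1 and KLF4, which also stand in the glucocorticoid and the endothelial list. The synaptic scaffold gene HOMER1 was 6.46 to 14.3 FPKM in Lidia and 11.3 to 29.3 FPKM in Wagyu (-1.12, limma adjusted p = 0.125), and PTHLH, a secreted peptide, was 1.38 to 1.84 FPKM and 2.16 to 2.77 FPKM (-0.55, limma adjusted p = 0.0635). Without Agg_8165 and Non_agg_5 the number of lower members at an unadjusted p under 0.05 was 8 and the median was -0.48.

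FKBP5 was the only called member of the 14 glucocorticoid-responsive genes tested, of which 7 were lower and 3 higher at an unadjusted p under 0.05, with a median of -0.60. Near the threshold stood MT1E, a metallothionein, at 0.720 to 2.07 FPKM in Lidia and 2.55 to 4.49 FPKM in Wagyu (-1.28, limma adjusted p = 0.0544). PDK4, a kinase that limits glucose oxidation, was 1.08 to 2.83 FPKM and 3.20 to 6.64 FPKM (-1.13, limma adjusted p = 0.113). ZBTB16, a transcription factor, was 1.95 to 3.61 FPKM and 3.80 to 6.04 FPKM (-0.85, limma adjusted p = 0.0898). NR3C1, the glucocorticoid receptor itself, stood the other way, at 2.66 to 3.40 FPKM in Lidia and 2.08 to 2.44 FPKM in Wagyu (0.39, limma adjusted p = 0.125), and CDKN1C, a cell cycle inhibitor, at 1.32 to 4.39 FPKM and 0.653 to 1.10 FPKM (1.23, limma adjusted p = 0.105). Without overlap were 5 members below and 2 above the Wagyu values, beside 1.78% and 3.32% of all genes tested. Among the genes the study lists as lower 21.8% lay wholly below, and among those listed as higher 36.3% lay wholly above. The study lists 8 of the 14 as lower and 6 as higher, so both directions were given beforehand.

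Among 3 thyroid hormone genes tested, 2 listed by the study as higher and 1 as lower, DIO2 fell while HR rose. HR, a nuclear receptor corepressor induced by thyroid hormone, was 1.74, 2.22, 1.68 and 1.55 FPKM in Lidia and 0.742 to 1.26 FPKM in Wagyu (0.83, SE 0.16, limma adjusted p = 0.0485). Of 8 retinoid genes, CRABP1, RARG and ALDH1A1 rose, and all 8, each listed by the study as higher, were higher at an unadjusted p under 0.05 (8.75% of all genes tested and 72.9% of those the study lists as higher). Without Agg_8165 and Non_agg_5, 0 of the 8 were called by limma. RARG, a retinoic acid receptor, was 1.202, 1.90, 1.54 and 1.37 FPKM in Lidia and 0.688 to 0.817 FPKM in Wagyu (0.93, SE 0.14, limma adjusted p = 0.0272). ALDH1A1, which makes retinoic acid from retinal, was 3.80, 3.98, 4.35 and 4.38 FPKM in Lidia and 1.65 to 2.86 FPKM in Wagyu (0.94, SE 0.15, limma adjusted p = 0.0378).

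Of 8 dopamine and cAMP coupling genes GNAL fell and 0 rose. The D2 receptor gene DRD2 was 0.406 to 1.15 FPKM in Lidia and 0.115 to 0.453 FPKM in Wagyu and was not called (0.89, limma adjusted p = 0.232). Of 7 heat shock and protein folding genes, DNAJB5 fell and BAG3, a co-chaperone of HSP70, rose, at 2.58 to 4.38 FPKM in Lidia and 1.56 to 1.97 FPKM in Wagyu (0.91, SE 0.15, limma adjusted p = 0.0354). Of 9 NOTCH pathway genes, NRARP, a target and feedback inhibitor of NOTCH signalling, rose, at 4.21, 3.07, 6.07 and 4.73 FPKM in Lidia and 1.58 to 2.27 FPKM in Wagyu (1.13, SE 0.17, limma adjusted p = 0.0319), and NOTCH1 was 1.40 to 2.51 FPKM and 0.406 to 0.984 FPKM without passing the threshold (1.202, limma adjusted p = 0.0554). Of 5 genes that the study placed in its network, BDNF was the called member. The study lists 3 dopamine, 2 heat shock, 8 NOTCH and 3 network members as higher, and 5, 5, 1 and 2 as lower. Of all genes it lists as higher 10.5% were called higher, and of those listed as lower 3.70% were called lower. Nothing is therefore read from the 1 or 2 calls in each of these lists.

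Because the marker gap remained, the same 4 Lidia bulls were set beside Non_agg_3 and Non_agg_4, whose mean marker levels lay within and above their range. This comparison was chosen after the data were seen, it has 2 Wagyu animals and shares its Lidia animals with the main one, so values are given side by side. In it 4 genes were called by limma, all lower in Lidia and none of them among the 109, and 398 of the 16360 genes tested had an unadjusted p under 0.05. Most of the connective tissue genes had fold changes below 0 here. Non_agg_3 and Non_agg_4 were left out of the contrast for their higher marker levels, so nothing is read from that direction. FBLN1 had a log2 fold change of 1.78 against the 6 Wagyu bulls and -0.48 against Non_agg_3 and Non_agg_4, COL1A2 of 1.54 and -0.39, and ZIC1 of 1.47 and -0.10. The median of the 31 fibroblast and meningeal genes was 0.93 and -0.37, and 6 of the 31 had fold changes above 0 against Non_agg_3 and Non_agg_4. The endothelial median was 1.05 and 0.19, with CDH5 at 1.25 and 0.13, CD93 at 1.64 and 0.39 and APLNR at 2.07 and 0.46. The retinoid median was 0.93 and 0.09, with CRABP1 at 2.11 and 0.75. C7 was 1.70 and 0.61, HR 0.83 and 0.91, and the oligodendrocyte median 0.68 and 0.89.

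The 8 genes with a symbol and the largest decreases all had fold changes below 0 against Non_agg_3 and Non_agg_4 too. Of all 109 genes called, 85 kept their direction there, with the same 4 Lidia libraries on both sides, so the shared sign is not independent evidence. EEF2K was -1.47 against the 6 Wagyu bulls and -1.54 against Non_agg_3 and Non_agg_4, FKBP5 -1.58 and -1.83, DIO2 -2.01 and -1.75, and BDNF -1.40 and -0.97. GNAL was -0.75 and -0.93, GALNT18 -0.69 and -0.71, OTOP1 -0.92 and -0.74, and DNAJB5 -0.82 and -0.34. The glucocorticoid median was -0.60 and -0.58, the activity-dependent median -0.70 and -0.48, the inhibitory neuron median -0.46 and -0.70 and the excitatory neuron median -0.34 and -0.08. None of these single genes was called against Non_agg_3 and Non_agg_4. In the 6 animals left out of the contrast, EEF2K differed by -1.21, FKBP5 by -1.69, DIO2 by -1.34 and BDNF by -1.14. There GNAL differed by -1.03, GALNT18 by -0.74, OTOP1 by -0.60 and DNAJB5 by -0.46. When the mean marker level was entered as a covariate in the 10 animals, limma called 0 genes and 3134 had an unadjusted p under 0.05. That covariate does not overlap between the breeds, so the fit has little to tell them apart with, and the lost calls say nothing of the size of the differences. The sign was kept for 104 of the 109 genes, and for the same reason nothing is read from the fold changes of this fit. They were -1.75 for EEF2K, -2.17 for FKBP5, -2.97 for DIO2 and -1.21 for BDNF. GNAL was at -0.74, GALNT18 at -0.64, OTOP1 at -0.54 and DNAJB5 at -0.38. CD93 was at 1.75 and C7 at 1.68, whereas FBLN1 turned to -0.56. With that covariate in all 16 animals, which include the 10, limma called 4 genes, all lower in Lidia. They were EEF2K (-1.55, limma adjusted p = 0.000682), FKBP5 (-1.78, limma adjusted p = 0.00739), HCLS1 (-1.48, limma adjusted p = 0.00739) and CD14, a receptor of monocytes (-1.67, limma adjusted p = 0.0130). The covariate is the mean of the markers that chose the animals, and EEF2K and FKBP5 were already called in the 10. These p-values are therefore not independent evidence, and the part of the marker level was not tested.

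**Figure D5:**
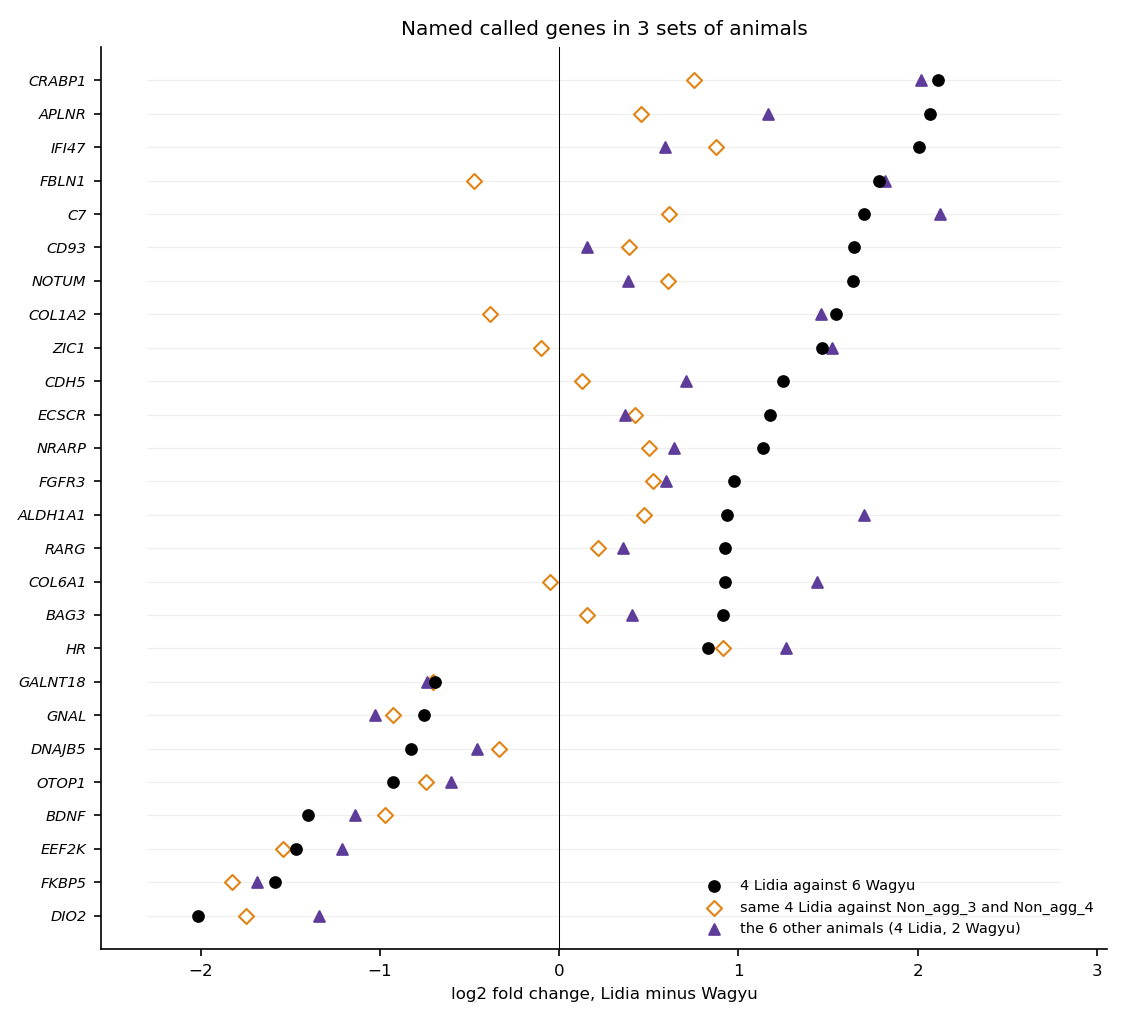
Log2 fold change (Lidia minus Wagyu) of the 26 named genes called in the contrast, the chosen markers left out, in the 4 Lidia and 6 Wagyu bulls (black circles), for the same 4 Lidia bulls against Non_agg_3 and Non_agg_4 (open diamonds) and in the 6 animals left out (triangles). The 8 genes at the bottom lie below 0 in all 3 sets, while FBLN1, COL1A2, ZIC1 and COL6A1 lie below 0 only against Non_agg_3 and Non_agg_4.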

How the data were processed

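The mRNA of the PFC was sequenced by the authors as stranded libraries with paired reads of 100 bases, trimmed, mapped with STAR 2.7.3a to ARS-UCD1.2, handled with SAMtools 0.1.18 and quantified with Cufflinks 2.2.1. Each of the 16 deposited files lists 43984 transcripts of 27607 Ensembl genes with FPKM (fragments per kilobase of transcript, relative to the fragments mapped) and coverage, and the deposited score column was not used. The authors' Cuffdiff comparison came later and is not part of these values. No read counts were used here, so precision rests on the spread between animals, and p-values measure that spread. The ratio of coverage to FPKM gave the depth.

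Gene FPKM was the sum over transcripts, scaled by the median of ratios over the 10 animals (16159 genes above 0 in all), so that factors ran from 0.651 to 2.33. For genes with a mean of 0.1 or more, log2(FPKM + 0.1) was fitted by lmFit and eBayes with a trend, two-sided and with no covariate, in limma 3.58.1 under R 4.3.3. Mitochondrial share and depth were tested by exact permutation with Python 3.11.15 and scipy 1.17.1. The fit was tested on simulated data. Animals were grouped by the breed in their titles.

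Symbols came from the positions of the study's list of changed loci: 1050 of 1197 entries were paired with 1 gene of identical extent, 147 spanned several genes or were unpaired, and 998 genes had a symbol. The RefSeq table is of another assembly and was not used, and no gene sequence was used. Named are the markers, the 8 largest changes per direction among called genes with a symbol and no overlap, called list members, and 2 genes per direction without a symbol. A list member is not reported here. Members and lists were chosen with earlier results of these data known. Alternatives were other scaling, pseudocounts, filters, thresholds, weights, covariates and animal sets.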

Additional observations from a re-analysis of the deposited data

Results flagged for a closer look

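Of 70 groups of 4 or 6 animals, 4 held 1 animal far from the others of its group (Dixon's test at the 95% level, gene values on the log2(FPKM + 0.1) scale), over 34 genes and the mitochondrial share, and chance alone flags about 1 group in 20. DNAJB5 was 6.999 FPKM in Agg_8171 against 10.05 to 10.7 FPKM in the other 3 Lidia bulls. DNAJB5 was also 23.1 FPKM in Non_agg_6 against 14.9 to 16.6 FPKM in the other 5 Wagyu bulls, so both ends of its breed difference held 1 such animal. ENSBTAG00000019824 was 0.117 FPKM in Agg_8171 and listed at 0 in the other 3 Lidia bulls. The mitochondrial share of FPKM was 39.3% in Non_agg_5 against 17.8% to 24.03% in the other 5 Wagyu bulls.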

How the results depend on the processing

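The count of 109 calls changed with scaling and with single animals. On FPKM as deposited 0 genes were called (0 higher, 0 lower), and the median of all genes shifted to -0.23. Called genes were 158 (147 higher) with upper-quartile scaling, 57 (49 higher) at a mean FPKM of at least 1, 34 (29 higher, 5 lower) without a filter, 137 (126 higher) without a trend, 879 (596 higher, 283 lower) with array weights, 2 (2 higher, 0 lower) with the adjusted p threshold at 0.01, 0 (0 and 0) with the marker covariate, which does not overlap between the breeds and left the sign of 104 of the 109 as it was, 827 (552 and 275) in all 16 animals and 4 (0 and 4) in all 16 with the marker covariate. Leaving out 1 animal gave 2 to 42 calls, 2 to 37 higher and 0 to 7 lower. Each such omission moved the count by over 1.5 times, to 40, 29, 11, 6, 14 and 2 without Non_agg_1, Non_agg_5, Non_agg_6, Non_agg_7, Non_agg_9 and Non_agg_12, and to 42, 14, 16 and 18 without Agg_8312, Agg_8165, Agg_8171 and Agg_8174. All 109 kept their sign in these fits. Of the settings chosen after the data were seen, an adjusted p threshold of 0.1 gave 242 calls (207 and 35), leaving out Agg_8165 and Non_agg_5 gave 13 (11 and 2), the mitochondrial share as a covariate 7 (5 and 2) and Non_agg_3 and Non_agg_4 as the reference 4 (0 and 4). Pseudocounts of 0.01 and 1 gave 100 and 104.

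Signs turned for log2 fold change of FBLN1 (-0.56), ENSBTAG00000011824 (-0.17), COL1A2 (-0.39) and ZIC1 (-0.040) with the marker covariate, for SLC6A13 (-0.10) and COL1A2 (-0.0069) with it in all 16 animals, and against Non_agg_3 and Non_agg_4 for DCN (-0.18), SLC6A13 (-0.62), FBLN1 (-0.48), ENSBTAG00000011824 (-0.14), COL6A1 (-0.050), COL1A2 (-0.39) and ZIC1 (-0.10). DCN and SLC6A13 are among the markers that chose the animals, so nothing is read from their signs. The cause of the other turns was not tested. The mitochondrial difference was 3.97 to 9.43 points when 1 animal was left out and 9.43 without Non_agg_5. The share without the 2 ribosomal RNA genes was not run. No paired analysis was possible because the breeds share no replicate numbers. Depth per gene is unknown without counts, which limits genes near 0.1 FPKM most.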
